A study of Mus musculus with 6 samples.

Results

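The genes described here encode mTOR, its partners in the complexes mTORC1 and mTORC2, and the proteins that switch mTORC1 on and off. CDK6 binding at them was read from 4 ChIP-seq peak lists. The 10 genes are the core of the pathway and were chosen by name, out of 22028 protein-coding genes in the annotation, and all 10 were found by symbol. Peaks were taken where they overlapped a promoter, defined here as reaching from 2000 bp ahead of an annotated transcript start to 200 bp past it, or the rest of the gene body. The cells were BCR::ABL1 (p185) transformed mouse pre/pro-B cell lines from Cdk6-/- bone marrow, in which HA-tagged CDK6 was overexpressed from a retroviral vector. In one group this was wildtype CDK6 (CDK6-WT, n = 2) and in the other the kinase-inactive mutant CDK6-K43M (n = 2), both in cells that lacked endogenous CDK6 and expressed BCR::ABL1. Chromatin was precipitated with an antibody against the HA tag, so that the CDK6 measured was the vector-borne protein. The comparison asks whether the kinase activity of CDK6 bears on where it is found on chromatin. The labels do not say whether the replicates of a variant were separate cell lines, so the spread between them may be technical.

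mTOR is a serine/threonine kinase that couples nutrients and growth factors to protein synthesis, ribosome production and cell growth. In mTORC1 it pairs with raptor (Rptor), which recruits substrates, and in mTORC2 with rictor (Rictor), which directs it towards AKT. mLST8 (Mlst8) sits in both complexes. The small GTPase RHEB switches mTORC1 on at the lysosome, and the TSC complex of hamartin (Tsc1) and tuberin (Tsc2) keeps RHEB in its inactive state. PRAS40 (Akt1s1) and DEPTOR bind and restrain the kinase, and the S6 kinase Rps6kb1 is a substrate of mTORC1 that promotes translation. In BCR::ABL1 transformed lymphoid cells the oncogenic kinase feeds into PI3K and AKT, which act on mTORC1 through TSC2 and PRAS40.

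Each list was ranked on its own by the −log10 q value of its peaks, and a percentile of 100 marks the strongest peak of that list. The CDK6-WT lists held 35189 and 34729 peaks and the CDK6-K43M lists 39797 and 37304. Their median −log10 q was 9.76 and 9.02 in the replicate 1 lists of CDK6-WT and CDK6-K43M, and 6.82 and 6.68 in the replicate 2 lists. The lists hold no read totals, and a gene without a peak is therefore one where none was called, not one shown to be free of CDK6. Peaks that overlapped were joined into 56748 regions. A region was called bound by both variants when at least 3 of the 4 lists had a peak in it (22979 regions), and unique to a variant when both lists of that variant and neither of the other did (204 for CDK6-WT, 714 for CDK6-K43M).

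The sequences below surround the summit of the strongest promoter peak of each gene, taken from the single list with the highest percentile. Summits of the other lists can lie elsewhere. At Mlst8 and Deptor those of all other lists lay outside the stretch shown. They are written 5′ to 3′ on the strand of the gene, from the GRCm38 (mm10) RefSeq assembly, with capitals for exact matches on either strand to an ETS motif (CCGGAAG), an SP1 motif (GGGCGG), an NFY motif (CCAAT), an NRF-1 motif (GCGCANGCG), a RUNX motif (TGTGGT) or an E-box (CACGTG). Mtor (chr4:148448220-148448420, plus strand) and Rptor (chr11:119602872-119603072, plus strand) are shown as the kinase and as the gene with the strongest mean binding. Deptor (chr15:55112238-55112346, plus strand) is shown as the weakest of the genes with a promoter peak in all 4 lists. Tsc2 (chr17:24632611-24632685, minus strand), Mlst8 (chr17:24478777-24478805, minus strand) and Rps6kb1 (chr11:86544805-86544934, minus strand) are shown for their ETS or NRF-1 matches. Stretches that ran into an annotated untranslated region were shortened.
Mtor: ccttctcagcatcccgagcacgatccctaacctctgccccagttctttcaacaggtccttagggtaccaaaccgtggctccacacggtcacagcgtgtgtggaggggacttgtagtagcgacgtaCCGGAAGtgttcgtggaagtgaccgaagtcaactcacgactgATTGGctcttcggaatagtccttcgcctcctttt
Rptor: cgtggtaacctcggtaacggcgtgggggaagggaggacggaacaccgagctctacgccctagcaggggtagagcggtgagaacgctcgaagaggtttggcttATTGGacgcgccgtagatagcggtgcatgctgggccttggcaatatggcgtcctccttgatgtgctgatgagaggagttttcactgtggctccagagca
Deptor: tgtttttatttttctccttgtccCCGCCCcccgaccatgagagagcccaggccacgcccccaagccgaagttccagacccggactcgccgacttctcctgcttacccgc
Tsc2: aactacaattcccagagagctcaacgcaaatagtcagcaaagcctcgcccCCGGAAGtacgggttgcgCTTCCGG
Mlst8: tagtcgccatGCGCATGCGttgcctaccc
Rps6kb1: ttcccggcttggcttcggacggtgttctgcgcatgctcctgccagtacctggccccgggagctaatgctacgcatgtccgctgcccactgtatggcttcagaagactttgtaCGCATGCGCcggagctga

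Motifs were searched only around the summit of that single strongest peak of each gene. Within 100 bases to either side of it, an NRF-1 match was present in 4 of the 10 genes (Mlst8, Akt1s1, Tsc2 and Rps6kb1). The share was 15.4% over the 9101 protein-coding genes with a promoter region bound by both and sequence to search. An ETS match was present in 2 (Mtor and Tsc2), against 20.5% of genes, and Tsc2 carried it on both strands, in the stretch shown. The NRF-1 match of Tsc2 lies outside that stretch. An NFY match was present in 4 (Mtor, Rptor, Akt1s1 and Deptor), against 24.7%. The NFY match of Deptor, and further SP1 matches of that gene, lie outside the stretch shown. An SP1 match was present in 2 (Deptor and Rheb), against 54.7%, a RUNX match in Rictor, against 9.69%, and an E-box in Rheb, against 8.91%. Tsc1 had none of the 6 motifs in this window. A match is a description of the sequence and not evidence of a factor at the site. The windows had a median GC content of 60.2% (range 41.8% to 69.2%), and those of the bound genes as a whole 64.2%. In the 1000 bases around the 5′ end, all 10 genes were CpG-rich (a GC content of at least 50% and an observed to expected CpG ratio of at least 0.6), as were 44.4% of 21938 genes. Their ratios ran from 0.728 at Akt1s1 to 1.06 at Rictor, and the median over all genes was 0.553.

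CDK6 peaks lay over the promoters of the mTOR genes in cells with either variant. A promoter region bound by both variants was found at 10 of 10 genes, where the share over all protein-coding genes was 41.3%. A promoter peak in all 4 lists was found at 9 of 10, against 33.2% of genes. Mtor itself was the exception and had no promoter peak in the CDK6-K43M replicate 2 list. This depended on the promoter window. With 500 bp to either side of a start, 10 of 10 genes had a peak in all 4 lists, against 32.3% of genes. Among CpG-rich 5′ ends, the class to which all 10 belong, 68.3% of 9742 genes had a promoter region bound by both and 56.2% a peak in all 4 lists. List by list, the peaks covered 10 of 10 genes in CDK6-WT replicate 1 (47% of all genes), 10 in CDK6-WT replicate 2 (40.1%), 10 in CDK6-K43M replicate 1 (48.5%) and 9 in CDK6-K43M replicate 2 (39.4%). The difference of −0.5 genes between CDK6-K43M and CDK6-WT gave p = 1 in a two-sided exact permutation test. None of the 10 had a promoter region unique to CDK6-WT, which 0.222% of all genes had, or to CDK6-K43M, which 0.713% had. The count depended on the weaker peaks. With a minimum −log10 q of 5 it was 8 of 10 (33.8% of genes), with a minimum of 10 it was 3 of 10 (17.1%), and with the 10000 strongest peaks of each list it was 2 of 10 (12.7%).

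The strength of these peaks was close to that of the median bound promoter. The median percentile of the 10 strongest promoter peaks was 84.3 in CDK6-WT replicate 1, where the median gene with a promoter peak stood at 78.9. It was 59.9 against 59.6 in CDK6-WT replicate 2, 80.6 against 80.4 in CDK6-K43M replicate 1, and 60.1 against 58.4 over the 9 genes in CDK6-K43M replicate 2. The peaks sat close to transcript starts, with a median distance from summit to nearest start of 68 bp, 66.5 bp, 28.5 bp and 57 bp in the same order of lists (all genes 64 bp, 86 bp, 65 bp and 89 bp).

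**Figure D1:**
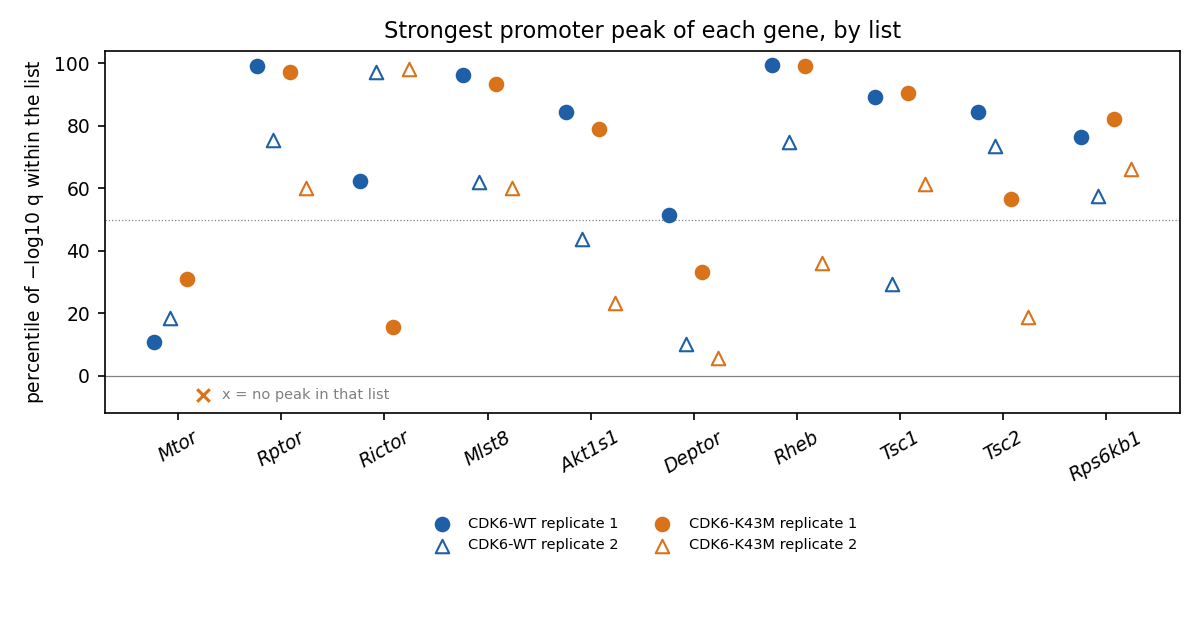
Percentile of the −log10 q (vertical axis, 0 to 100 within each list) of the strongest promoter peak of each gene (horizontal axis). Filled circles are replicate 1 lists and open triangles replicate 2 lists, in blue for CDK6-WT and orange for CDK6-K43M, and a cross marks the missing Mtor peak. At 7 genes both circles lie above both triangles, and at Rictor both triangles lie above both circles.

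The kinase gene Mtor had weak promoter peaks in 3 lists and none in CDK6-K43M replicate 2. Its promoter region (chr4:148448165-148448842) reached the percentile 10.9 in CDK6-WT replicate 1, 18.5 in CDK6-WT replicate 2 and 30.9 in CDK6-K43M replicate 1. Relative to the nearest start the summits lay at −321 bp, −266 bp and −291 bp, within the sequence shown. The stronger regions at Mtor were inside the gene. A region in the first part of the gene (chr4:148448920-148449479, intron) stood at 73.2 and 32 in the CDK6-WT lists and at 62.2 and 70.5 in the CDK6-K43M lists, higher than the promoter in each of them. Further in, 2 regions over coding exons were present in all 4 lists. The first (chr4:148469223-148470839) stood at 64.2 and 90.7 for CDK6-WT and at 52.7 and 94.1 for CDK6-K43M. The other (chr4:148471162-148472104) stood at 81.5 and 95.3 for CDK6-WT and at 80.8 and 95.3 for CDK6-K43M. In both, the replicate 2 lists were above the replicate 1 lists, the reverse of most promoters below. Beside them lay the single variant-unique region in any of the 10 genes, an intronic region unique to CDK6-K43M (chr4:148468532-148468834) at the weak percentiles 16.9 and 9.6. It is shown because it is that only one, as chr4:148468555-148468755, plus strand, with an E-box in capitals.
Mtor, intron: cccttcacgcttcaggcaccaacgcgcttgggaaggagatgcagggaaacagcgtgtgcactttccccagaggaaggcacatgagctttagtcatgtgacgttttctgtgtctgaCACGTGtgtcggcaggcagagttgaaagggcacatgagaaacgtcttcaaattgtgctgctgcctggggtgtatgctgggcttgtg

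The mTORC1 subunit gene Rptor had the strongest mean promoter binding of the group. Its promoter region (chr11:119602781-119603340) stood at 99 and 75.3 in the CDK6-WT lists and at 97.3 and 60.1 in the CDK6-K43M lists, with fold enrichments of 19.5 and 6.69 in CDK6-WT and 16.8 and 5.29 in CDK6-K43M. Both replicate 1 lists were above both replicate 2 lists. The 4 summits lay within 40 bp upstream of a start. The mean percentile of 82.9 was above that of 77.5% of the 7312 genes with a promoter peak in all 4 lists. Rptor is also the longest of the genes (296.7 kb) and held 11 further regions, 6 of them bound by both. Of these, 2 were in all 4 lists, and the stronger lay near its 3′ end over coding exons (chr11:119896912-119897616), at 94.1 and 67.9 in CDK6-WT and 90.3 and 55.4 in CDK6-K43M. An intronic region (chr11:119709057-119709842) was missing from CDK6-WT replicate 1 but stood at 95.5 in CDK6-WT replicate 2, and at 62.2 and 88 in the CDK6-K43M lists.

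The mTORC2 subunit gene Rictor differed from the others in the order of its lists. A proximal region (chr15:6707315-6708676) stood at 62.3 and 97.1 in the CDK6-WT lists and at 15.5 and 95.4 in the CDK6-K43M lists. A broader region further upstream (chr15:6704963-6706977), with summits at −2707 bp, −2636 bp, −2539 bp and −2900 bp from the nearest start in the order of the lists, stood at 48 and 96.1 for CDK6-WT and at 66.1 and 98.3 for CDK6-K43M. In each region both replicate 2 lists were above both replicate 1 lists. The part of the upstream region called in CDK6-K43M replicate 1 ended short of the promoter window, so the value of Rictor in that list, 15.5, came from the proximal peak, and its value in CDK6-K43M replicate 2, 98.3, from the upstream one. The sequences under the 2 regions are printed side by side because they differ in composition. The upstream window (chr15:6705379-6705579, plus strand) had a GC content of 41.8% and 2 CpG, with the RUNX match in capitals, and the proximal window (chr15:6707631-6707831, plus strand) had 72.1% and 29 CpG, with a pair of SP1 matches. These windows, like the Mtor intron, were chosen after their values were seen.
Rictor upstream: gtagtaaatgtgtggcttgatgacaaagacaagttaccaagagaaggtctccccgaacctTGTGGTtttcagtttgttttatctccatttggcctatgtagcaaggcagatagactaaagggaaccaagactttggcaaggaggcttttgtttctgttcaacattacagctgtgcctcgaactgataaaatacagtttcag
Rictor proximal: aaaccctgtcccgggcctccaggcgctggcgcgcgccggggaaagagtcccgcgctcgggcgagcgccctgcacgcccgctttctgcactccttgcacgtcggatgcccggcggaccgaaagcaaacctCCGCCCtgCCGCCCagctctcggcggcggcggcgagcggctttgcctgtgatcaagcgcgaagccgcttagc

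**Figure D2:**
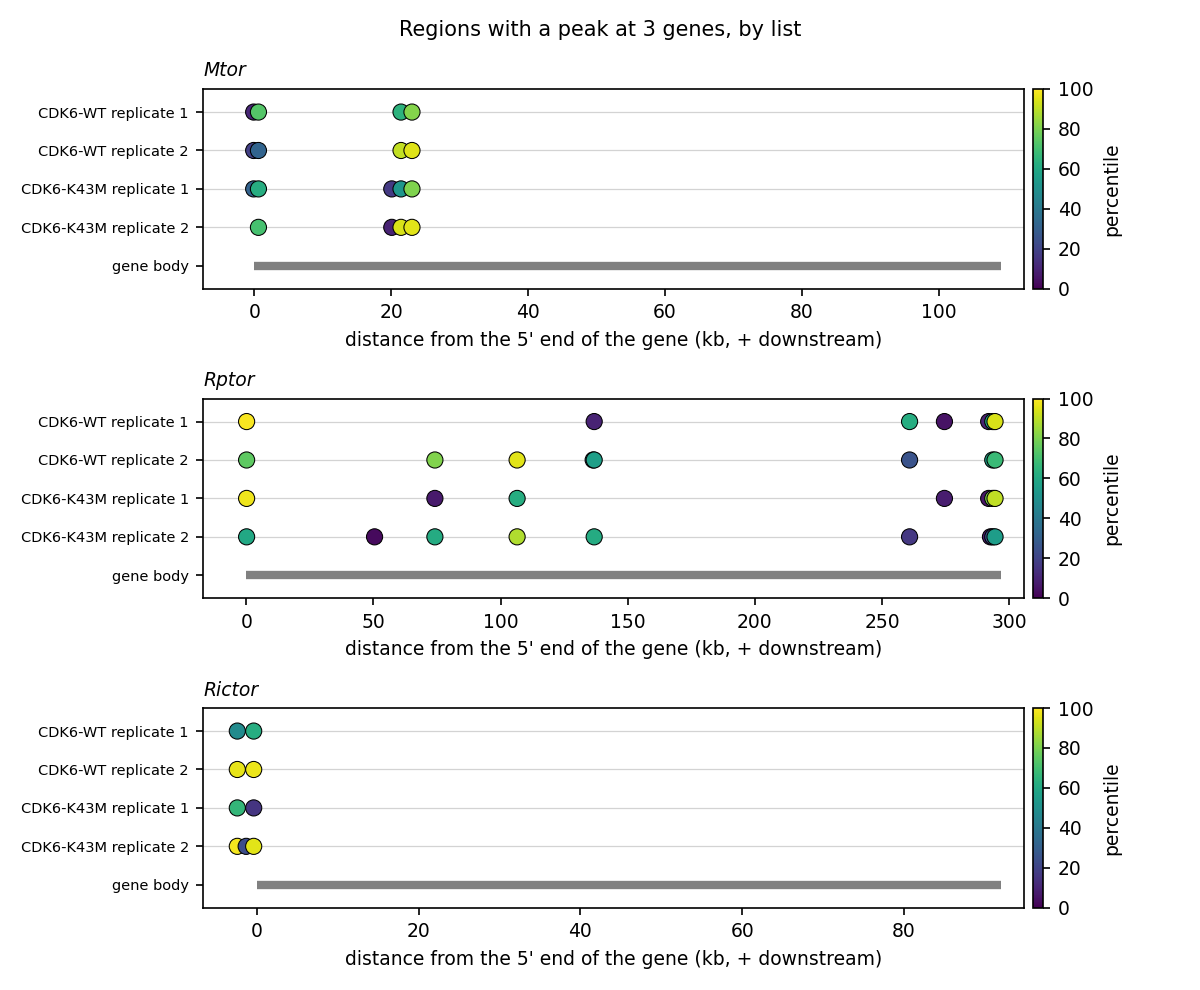
Regions with a peak at Mtor, Rptor and Rictor, by distance of the region's midpoint from the 5′ end of the gene (kb), in 1 row per list, with the grey bar as the gene body. Colour gives the percentile within the list. Mtor carried its stronger regions past its promoter window, the first of them close to its 5′ end. Rptor carried them at both ends and in its introns, with the highest intronic percentiles in the replicate 2 lists. Rictor carried them around and upstream of its 5′ end, with none elsewhere in the gene body.

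Mlst8, the subunit of both complexes, had a promoter region (chr17:24478557-24479434) at 96.2 and 62.2 in the CDK6-WT lists and at 93.5 and 60.1 in the CDK6-K43M lists. Both replicate 1 lists were above both replicate 2 lists, and within each replicate number the variants were close, with differences (CDK6-K43M minus CDK6-WT) of −2.65 and −2.06 points. In 3 lists the summit lay within 9 bp of an annotated start. In CDK6-WT replicate 1 it lay 258 bp downstream of the nearest one, in the stretch shown with its NRF-1 match.

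Of the genes for inhibitors that bind mTOR, Akt1s1 (PRAS40) stood at 84.3 and 43.9 in the CDK6-WT lists and at 78.8 and 23.3 in the CDK6-K43M lists. The CDK6-WT replicate 2 value came from a separate peak (chr7:44849814-44850059) that did not overlap the strongest peak of any other list. The promoter region (chr7:44848558-44850130) is shared with Tbc1d17, a Rab GTPase-activating protein gene transcribed the other way. Its start lies 80 bp from the CDK6-WT replicate 1 summit. The start of the microRNA gene Mir707 lies 540 bp from that summit. A peak of this kind cannot be assigned to one of these genes. Deptor had the lowest mean percentile of the genes found in all 4 lists, with 51.6 and 10.2 in CDK6-WT and 33.2 and 5.64 in CDK6-K43M. The mean of 25.2 was above that of 0.438% of the 7312 genes with a promoter peak in all 4 lists. Both inhibitor genes were higher in both replicate 1 lists than in either replicate 2 list.

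Rheb, the GTPase that activates mTORC1, carried the strongest single promoter peak of the group. Its promoter region (chr5:24842119-24842829) stood at 99.4 and 74.7 in the CDK6-WT lists and at 99.1 and 36.2 in the CDK6-K43M lists. CDK6-K43M minus CDK6-WT was −0.297 points in the replicate 1 lists and −38.5 points in the replicate 2 lists. The summits were 29 bp to 71 bp from a start.

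The genes of the TSC complex, which restrains RHEB, had mean percentiles that differed between the variants in opposite directions. Tsc1 (chr2:28640573-28641526) stood at 89.3 and 29.5 for CDK6-WT and at 90.6 and 61.2 for CDK6-K43M. The difference of 16.5 points in favour of CDK6-K43M came mostly from the replicate 2 lists and was smaller than the spread between the CDK6-WT replicates (SD 42.3, n = 2). Tsc2 stood at 84.3 and 73.4 for CDK6-WT and at 56.5 and 18.8 for CDK6-K43M. It was the single gene of the 9 in all 4 lists whose variants did not overlap. Both its CDK6-WT values lay above both CDK6-K43M values, as at 3.61% of the 7312 genes. None of the 9 had both CDK6-K43M values on top, which 6.77% of the 7312 genes had. The Tsc2 means were 78.9 ± 7.72 for CDK6-WT and 37.7 ± 26.6 for CDK6-K43M (SD, n = 2 each), a difference of −41.2 points (two-sided exact permutation test, p = 0.33, the lowest value possible with 2 libraries a variant). The CDK6-WT replicate 2 value came from an internal start some way into the gene (chr17:24604746-24604992), where no other list had a peak. A neighbouring region (chr17:24604021-24604326) had peaks in the replicate 2 lists alone, at 56.1 in CDK6-WT and 16.2 in CDK6-K43M. At the 5′ end alone (chr17:24632494-24632987) the values were 84.3 and 58.7 in CDK6-WT and 56.5 and 18.8 in CDK6-K43M, which also did not overlap, with a difference of −33.9 points (exact permutation p = 0.33). The 5′ end is shared with Nthl1, a DNA glycosylase gene of base excision repair on the other strand, whose start lies 23 bp from the summit.

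The mTORC1 substrate gene Rps6kb1 (chr11:86544576-86545391) stood at 76.5 and 57.6 for CDK6-WT and at 82.3 and 66.2 for CDK6-K43M. CDK6-K43M was higher within each replicate number, by 5.82 and 8.57 points, and both replicate 1 lists were above both replicate 2 lists. The region is shared with Tubd1, a delta-tubulin gene on the other strand, 157 bp from the summit. In all, 3 of the 10 genes shared their strongest peak with a protein-coding gene on the other strand, as did 21.8% of 9103 bound genes.

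Between the variants, the 9 genes in all 4 lists differed by a median of −11.4 points (CDK6-K43M minus CDK6-WT), with 2 of 9 above 0, where the median over 7312 genes was 0.546 and 52.1% were above 0. The exact permutation p was 0.33 for Tsc2, 1 for Rictor and 0.67 for the other 7, and no p in this design can reach 0.05. The median difference was −2.65 points over the replicate 1 lists alone and −4.54 over the replicate 2 lists alone. It was 7.2 without CDK6-WT replicate 1, −20.3 without CDK6-WT replicate 2, −25.2 without CDK6-K43M replicate 1 and 13.2 without CDK6-K43M replicate 2. Each of these omissions leaves the replicate numbers unbalanced between the variants. The replicate number separated the values more than the variant did. Both replicate 1 lists were above both replicate 2 lists at 7 of 9 genes, as at 69.4% of 7312 genes, and the reverse held at Rictor, as at 10.1%. Tsc2 was the gene with neither order. The median difference, replicate 1 minus replicate 2, was 33.7 points over the 9 genes and 20.8 over all. That of Rictor was −58.8 points, with 0.479% of genes lower, whereas those of the other 8 ran from 17.5 (Rps6kb1) to 48 (Akt1s1). Whether the replicate numbers mark a batch of cells, chromatin or sequencing is not stated in the labels, and the part of such a batch in these values was not tested.

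**Figure D3:**
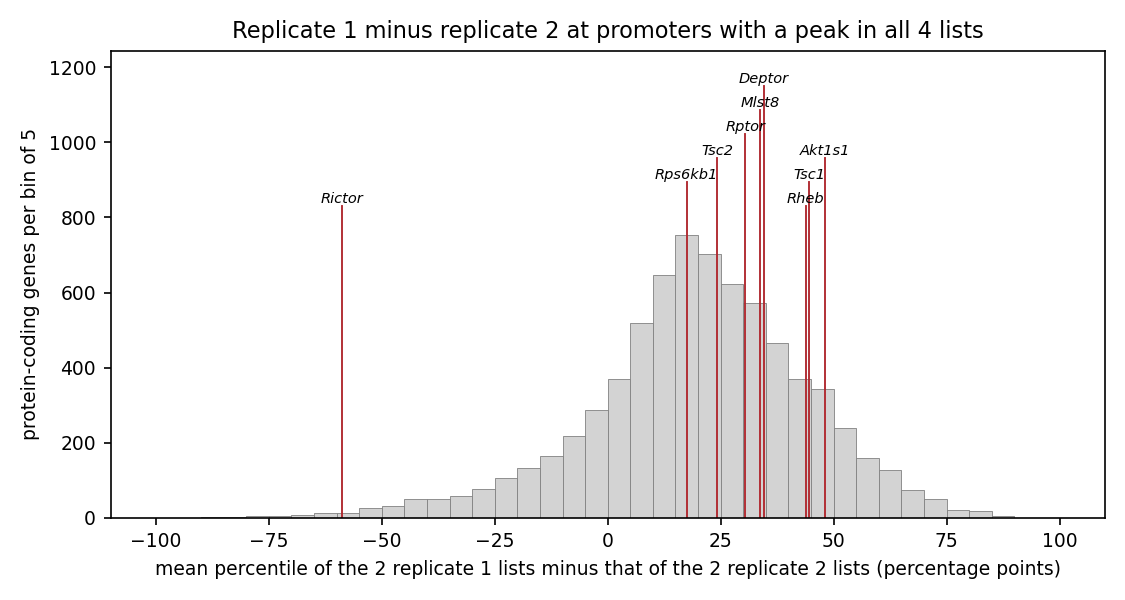
Mean percentile of the replicate 1 lists minus that of the replicate 2 lists (horizontal axis, percentage points) at promoters with a peak in all 4 lists. Grey bars count protein-coding genes per bin of 5 points (n = 7312) and red lines mark the 9 mTOR genes, of which 8 lie above 0 and Rictor lies at −58.8.

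Outside their promoters the 10 genes held 24 regions, of which 11 were bound by both, 1 was unique to CDK6-K43M, 0 were unique to CDK6-WT and the other 12 were in 1 or 2 lists in another combination. Over the 829.2 kb of the genes this was 2.89 regions per 100 kb, and 1.33 for regions bound by both. All protein-coding genes had 2.25 and 0.736. Variant-unique regions outside promoters were not counted over all genes. Rptor (11 regions), Mtor (4) and Deptor (3) held most of them, Rheb and Tsc1 held 2 each, Akt1s1 and Tsc2 held 1 each, and none was called in Rictor, Mlst8 or Rps6kb1. At Akt1s1 the region over coding exons (chr7:44854305-44855065) was in all 4 lists, at 35.5 and 36.3 in CDK6-WT and 63.4 and 1.26 in CDK6-K43M. At Deptor an intronic region (chr15:55196368-55196833) stood at 41.3 and 29.5 for CDK6-WT and at 67.7 in CDK6-K43M replicate 2, and was missing from CDK6-K43M replicate 1. It was stronger than the promoter in both replicate 2 lists and weaker in CDK6-WT replicate 1.

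Promoter regions bound by both variants were also found across the wider pathway. Of 83 further genes that feed into mTOR or act below it, 68 (81.9%) had a promoter region bound by both variants and 61 a promoter peak in all 4 lists, where the shares over all genes were 41.3% and 33.2%. Among genes with CpG-rich 5′ ends these shares were 68.3% and 56.2%. The CpG content of the 83 genes was not examined, so which share is the closer comparison is not known. By group this was 10 of 11 genes for AMPK, LKB1 and stress input, 8 of 12 for PI3K and AKT, 26 of 30 for amino acid sensing at the lysosome, 19 of 23 for targets of the complexes, and 5 of 7 for other partners of TSC, mTORC1 and mTORC2. The 5 with the highest mean percentile were Eif4b, a translation initiation factor (96.3), Eef2k, the kinase that holds back elongation (95), Pik3cd, the leukocyte PI3K catalytic subunit (94), Pdcd4, a translation inhibitor (93.2), and Tfeb, a transcription factor for lysosomal genes (90.9). Each of them was above the mean percentile of Rptor.

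No promoter peak was called in any list for Pik3cb, the insulin receptor substrate Irs1, the stress gene Ddit4l or Eif4ebp3. Peaks too few for the call were found at Akt1, Irs2, Lamtor3, Depdc5, Wdr24, Prr5, Eif4ebp1, Tfe3 and Larp1, each of which had its peaks in the replicate 1 lists of both variants and none in a replicate 2 list. The replicate 1 lists also covered more of all protein-coding genes, 47% for CDK6-WT and 48.5% for CDK6-K43M, against 40.1% and 39.4% in replicate 2. The share of all genes with this pattern was not counted. Akt1, the kinase that phosphorylates TSC2 and PRAS40, stood at 75.2 in CDK6-WT replicate 1 and 72.5 in CDK6-K43M replicate 1. Depdc5, a subunit of the GATOR1 complex that restrains mTORC1 when amino acids are scarce, stood at 93.1 and 86.5 there. Eif4ebp1, the translation repressor that mTORC1 phosphorylates, stood at 36.8 and 35.8. The remaining genes without the call were Rragd, which had a peak in CDK6-WT replicate 2 (10.2) and CDK6-K43M replicate 1 (14.7), and Prr5l, which had one in CDK6-K43M replicate 1 (11.3). The single variant-unique promoter region of the 83 was at Prkaa1, a catalytic subunit gene of AMPK. It was unique to CDK6-K43M and lay beside a region bound by both. Over all protein-coding genes, 0.713% had a promoter region unique to CDK6-K43M and 0.222% one unique to CDK6-WT. The strongest promoter peak of Prkaa1 stood at 71.9 and 72.6 in CDK6-WT and 77.7 and 86.6 in CDK6-K43M.

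**Figure D4:**
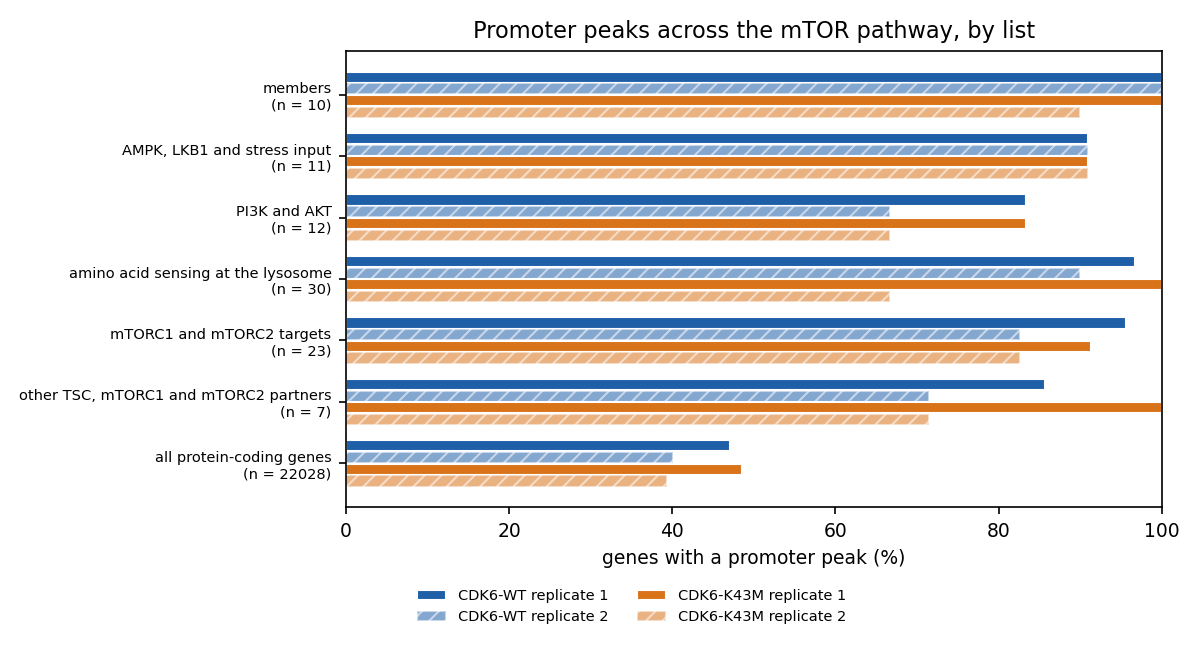
Share of genes with a promoter peak (horizontal axis, %) in each of the 4 lists, for the 10 mTOR genes (members), 5 groups of other pathway genes and all protein-coding genes. Plain bars are replicate 1 lists and hatched bars replicate 2 lists, in blue for CDK6-WT and orange for CDK6-K43M. In every group each list lies above its own share over all protein-coding genes.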

How the data were processed

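Anti-HA ChIP-seq peak lists of 4 libraries, grouped by variant and replicate number from their titles, were analysed. 2 input libraries were not analysed here. Cells had been crosslinked with DSG and formaldehyde. Per the study's methods and processing notes, the authors used FastQC 0.11.5, Trimmomatic 0.36, BWA 0.7.15, bedtools and SAMtools 1.3.1 on mm10 and called peaks per library with MACS2 2.1.0. Each line of the deposited lists holds a fold enrichment (a ratio), p-values and q-values as −log10, a score made from the q-value, and the summit offset. They hold no depth, and the stringency of a list shifts with it, so −log10 q was used only as a percentile within its list.

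Peaks overlapping by at least 1 bp were merged in place of the DiffBind step of the study. Promoters came from GENCODE M21, whereas the authors used M13, both on GRCm38. Differences were tested with exact permutation tests over libraries. Calls were tested on simulated lists, with 0 errors. These lists were simpler than the data, with at most a single peak per list at a site, a single start per gene and no gene bodies. Alternatives were stricter peak sets, other promoter windows and merging, ranking by fold enrichment, the replicate block and leaving out each library. All 10 genes are named, with those of the wider pathway that lacked the call, had a variant-unique region or were the 5 strongest, and genes that start within 1000 bp of a summit. The genes and lists were chosen with earlier results of these data known, and 1 further gene of the wider pathway is not reported here. Sequences were to be shown for up to 6 genes. Akt1s1 and Rheb also qualified and are not shown, because their windows lie mostly in untranslated regions. Python 3.11.15, numpy 2.4.6, pandas 2.3.3, scipy 1.17.1, pysam 0.24.0 and matplotlib 3.10.9 were used.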

Additional observations from a re-analysis of the deposited data

How the results depend on the processing

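Of 105 values recomputed under alternatives for 15 results, 2 reversed and 16, all of them counts, moved well away from the reported count. The other 87 did neither, but the difference in genes with a promoter peak per list, −0.5, still ran from −2.5 (minimum −log10 q of 10) to 0. For the median percentile and its difference between the variants, a move meant a shift beyond 15.9 points, the SD of list medians within a variant. The median difference of −11.4 points is smaller than this, so its loss could not have counted as a move. A minimum −log10 q of 5 left 4 genes with a promoter peak in all 4 lists (23.5% of all genes) and 13 gene-body regions. A minimum of 10 left 3 genes bound by both, 0 in all 4 lists (8.41% of all genes), 9 gene-body regions and 34 of the 83 pathway genes. The 10000 strongest peaks per list left 2, 0 (5.98% of all genes), 7 and 26. Fewer peaks enter these counts by construction. Merging peaks within 500 bp left 13 gene-body regions. Without one library in turn, the number of genes with a variant-unique promoter region, 0 with all 4 lists, ran from 0 to 3 (1 without CDK6-WT replicate 1, 3 without either CDK6-K43M replicate), since a single list then stands for a variant. The median difference between the variants, −11.4 points, ran from −25.2 to 13.2 and reversed without CDK6-WT replicate 1 (7.2) and without CDK6-K43M replicate 2 (13.2). Leaving out any single library makes the replicate numbers unbalanced. Over the replicate 1 and replicate 2 lists alone the median difference was −2.65 and −4.54. Within 50 bases to either side of the summit, SP1 matches were in 0 genes in place of 2 (35.9% of bound genes in place of 54.7%) and NFY matches in 2 in place of 4 (14.5% in place of 24.7%). With the replicate number as a block, the difference in the number of genes with a promoter peak was −0.5. The mean of the 2 medians within replicate numbers, −2.65 and −4.54, was −3.6 points, which is not a blocked estimate. A block leaves the difference of each gene, and so the median of −11.4 points, as it was. The labels do not say what the replicate numbers mark, and with 2 pairs no sign test goes below 0.5. Across the 7312 genes, which are not independent replicates, the replicate 1 minus replicate 2 differences of the variants correlated with r = 0.573. The block changed no call. The lists give no read totals, so whether a missing peak reflects depth was not tested.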
